A study of Mus musculus with 2 samples.

Results

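Expression of 10 genes that write, erase or read cytosine methylation in DNA was described in the spleen of newborn mice. The genes were taken by symbol, with no cutoff on their values, but earlier results of these data were known. They are the DNA methyltransferases Dnmt1, Dnmt3a and Dnmt3b, their cofactor Dnmt3l and the recruiting factor Uhrf1. The others are the dioxygenases Tet1, Tet2 and Tet3, and the imprint reader Zfp57 with its corepressor Trim28. All 10 were found among the 43346 Ensembl genes of the tables. Whole spleens of 2 pups of strain B6NCrl were taken on the day of birth (0 days), from a single pregnancy, with no genetic change or treatment named and sex not recorded. Total RNA above 200 nt was sequenced from 10 ng of input, and each pup gave 1 library. Both belong to 1 group (P0 spleen, n = 2), so there was no contrast between conditions and no test was made. Replicate 1 is the library of pup 2, with 33122187 estimated counts, and replicate 2 that of pup 1, with 32162543.

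Methylation of cytosine in CG dinucleotides (CpG) is copied after each round of DNA replication. Uhrf1 recognises DNA that carries the mark on the parental strand only, and brings in the maintenance enzyme Dnmt1. Dnmt3a and Dnmt3b set new marks, with Dnmt3l as a catalytically inactive helper in the germline. The Tet enzymes oxidise 5-methylcytosine, the first step of its removal. Zfp57, a KRAB zinc finger protein, binds methylated imprinting control regions and recruits Trim28, which keeps the mark in place through histone methylation. At birth the mouse spleen is a site of blood formation, with many dividing erythroid precursors beside granulocytes and few lymphocytes. In blood formation Dnmt3a and Tet2 are best known as regulators of stem and progenitor cells.

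In Dnmt1, Dnmt3a and Uhrf1 reads were divided between separate annotated starts, and Dnmt3b between forms with and without certain exons. The stretches before these starts, from the RefSeq promoter table (build GRCm38.p6), are shown because they differ in CpG content within a gene. The stretches lie upstream of the start in that table or, where an exon reaches further, of that exon. They are outside every annotated exon of the gene and are given on the gene's strand, 5′ to 3′, with each CpG in capitals. For Dnmt1 the main start lies at chr9:20952979 with the stretch chr9:20952980-20953179, and the upstream start at chr9:20959888 with chr9:20959889-20960088, both on the minus strand. They hold 7 and 1 CpG in 200 nt.
Dnmt1 main start: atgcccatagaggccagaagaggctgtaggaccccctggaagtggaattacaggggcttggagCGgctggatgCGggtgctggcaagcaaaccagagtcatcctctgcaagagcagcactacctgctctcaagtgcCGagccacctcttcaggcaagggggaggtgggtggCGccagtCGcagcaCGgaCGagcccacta
Dnmt1 upstream start: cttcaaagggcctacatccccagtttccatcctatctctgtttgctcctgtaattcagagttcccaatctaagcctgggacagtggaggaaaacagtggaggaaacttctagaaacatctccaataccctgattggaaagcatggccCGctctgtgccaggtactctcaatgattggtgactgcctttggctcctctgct

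For Dnmt3a, on the plus strand of chromosome 12, the start of the long form is preceded by chr12:3806780-3806979, with 29 CpG in 200 nt. The internal start, from which a shorter protein is made, is preceded by chr12:3891544-3891727, with 13 CpG in 184 nt.
Dnmt3a long form start: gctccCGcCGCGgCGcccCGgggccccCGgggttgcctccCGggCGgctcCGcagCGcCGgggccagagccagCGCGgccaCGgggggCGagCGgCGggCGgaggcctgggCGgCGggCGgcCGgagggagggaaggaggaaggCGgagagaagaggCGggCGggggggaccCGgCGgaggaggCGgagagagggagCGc
Dnmt3a internal start: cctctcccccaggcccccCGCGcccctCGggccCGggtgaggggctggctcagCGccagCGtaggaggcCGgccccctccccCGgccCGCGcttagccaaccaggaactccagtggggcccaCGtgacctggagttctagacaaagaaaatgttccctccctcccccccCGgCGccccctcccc

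For Uhrf1, on the plus strand of chromosome 17, the upstream start is preceded by chr17:56303137-56303320, with 9 CpG in 184 nt. The downstream start is preceded by chr17:56304113-56304312, with 25 CpG in 200 nt.
Uhrf1 upstream start: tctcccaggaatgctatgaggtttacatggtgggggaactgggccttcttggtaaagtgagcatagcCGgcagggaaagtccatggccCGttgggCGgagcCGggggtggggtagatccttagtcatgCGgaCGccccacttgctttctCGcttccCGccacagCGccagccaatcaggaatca
Uhrf1 downstream start: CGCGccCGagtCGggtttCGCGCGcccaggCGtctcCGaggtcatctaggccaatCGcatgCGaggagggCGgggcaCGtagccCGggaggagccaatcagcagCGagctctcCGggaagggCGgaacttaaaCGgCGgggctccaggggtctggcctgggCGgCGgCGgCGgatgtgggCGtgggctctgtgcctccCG

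The leading Dnmt3b transcript, Dnmt3b-206, lacks 3 coding exons of the full-length transcript Dnmt3b-201, besides a noncoding exon near its start. Exon 11 (60 nt, chr2:153670849-153670908) is a known alternative exon, and exons 22 (70 nt, chr2:153683608-153683677) and 23 (119 nt, chr2:153684359-153684477) lie in the part that encodes the catalytic domain. They are shown because reads on them tell the forms apart, in the sense of the plus strand from the GENCODE M21 transcript, and nothing is capitalised.
Dnmt3b exon 11: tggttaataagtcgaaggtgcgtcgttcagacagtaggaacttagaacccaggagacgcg
Dnmt3b exon 22: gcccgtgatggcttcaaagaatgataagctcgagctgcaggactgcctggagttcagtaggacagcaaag
Dnmt3b exon 23: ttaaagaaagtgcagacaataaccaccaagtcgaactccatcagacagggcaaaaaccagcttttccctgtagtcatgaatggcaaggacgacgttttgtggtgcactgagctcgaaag

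Of the 10 genes, 9 were detected, that is, reached 1 TPM (abundance per length, as a share of the library) in both libraries. The share among all genes was 31.0%, and among protein-coding genes 55.6%. Levels spanned from over 100 TPM for Trim28 to under 1 TPM for Dnmt3l. Together the 10 genes held 317 TPM in replicate 1 and 322 TPM in replicate 2, or 0.0320% ± 0.000293 of all TPM (SD, n = 2). Levels below are TPM as mean ± SD of the 2 libraries, and a difference between replicates is a ratio of 2 libraries with no replicate check.

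**Figure D1:**
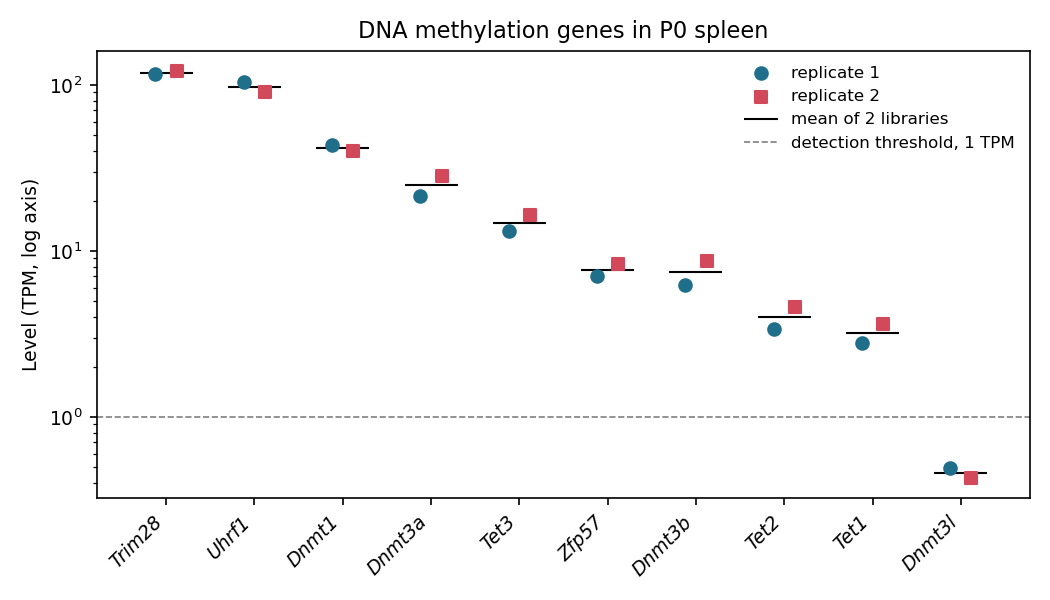
Level of each gene in both libraries in TPM on a log axis, with circles for replicate 1, squares for replicate 2, a black line for the mean and a dashed line at the detection threshold of 1 TPM. Only Dnmt3l lies under the threshold, and the points of a gene lie close together against the range from Trim28 to Dnmt3l.

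The maintenance pair stood at the upper end. Uhrf1, on chromosome 17 (56303321 to 56323486), was at 103.9 TPM in replicate 1 and 90.5 TPM in replicate 2, a mean of 97.2 ± 9.50. This placed it 1119th among 21474 protein-coding genes. Dnmt1, on chromosome 9 (20907209 to 20959888), was at 43.4 and 40.1 TPM, a mean of 41.7 ± 2.35, above 88.4% of protein-coding genes. Both genes were higher in replicate 1. Within a library, Uhrf1 stood 2.39 and 2.26 times as high as Dnmt1 in TPM. Its paralog Uhrf2 was at 29.0 and 32.0 TPM, so Uhrf1 exceeded it 3.59-fold and 2.83-fold.

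The de novo enzymes were lower. Dnmt3a, on chromosome 12 (3806007 to 3914443), was at 21.4 TPM in replicate 1 and 28.1 TPM in replicate 2, a mean of 24.8 ± 4.69. Dnmt3b, on chromosome 2 (153649450 to 153687730), was at 6.18 and 8.72 TPM, a mean of 7.45 ± 1.80. Both were higher in replicate 2, and Dnmt3a exceeded Dnmt3b 3.47-fold and 3.22-fold in TPM. In counts per kilobase of the longest complete coding transcript, scaled to the library (CPM per kb), the mean ratio was 1.76. This unit was chosen after seeing the data. Dnmt3c, a rodent duplicate of Dnmt3b known from the male germline, was at 1.02 and 1.23 TPM on 68 and 77 reads. Reads on sequence that the copies share were divided by an estimate. The posterior SDs of the counts in replicates 1 and 2 were 2.52 and 2.49 reads, for Dnmt3b as for Dnmt3c.

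Dnmt3l, on chromosome 10 (78041947 to 78063622), was the gene of the group that was not detected. It had 0.49 TPM on 9 estimated reads in replicate 1 and 0.43 TPM on 13 in replicate 2. In replicate 1, 3 of the reads went to Dnmt3l-207, a short transcript annotated as a retained intron. The order of the libraries in TPM was opposite to that in reads, and at this depth no difference was detectable. The exons of Dnmt3l overlap those of Aire, on the other strand, by 67 nt, and Aire had 4 and 2 reads.

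Among the dioxygenases Tet3 was highest. Tet3, on chromosome 6 (83362373 to 83459084), stood at 13.2 TPM in replicate 1 and 16.4 TPM in replicate 2, a mean of 14.8 ± 2.26. Tet2, on chromosome 3 (133463679 to 133545139), stood at 3.37 and 4.61 TPM, a mean of 3.99 ± 0.877. Tet1, on chromosome 10 (62804570 to 62908996), stood at 2.79 and 3.60 TPM, a mean of 3.19 ± 0.573. All 3 were higher in replicate 2, and Tet3 made up 68.1% and 66.6% of their summed TPM. Tet2 and Tet1 were 1.21-fold and 1.28-fold apart within a library, while their ranges in TPM over the libraries overlapped. Per kilobase of the longest complete coding transcript, Tet2 (3.17 and 4.21 CPM per kb) stood clear of Tet1 (1.10 and 1.40), a mean ratio of 2.96. Tet3 stayed highest in that unit (6.40 and 7.97), but its lead was smaller. The mean ratio of Tet2 over Tet3 was 0.512 there, against 0.269 in TPM.

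The readers stood far apart from each other. Trim28, on chromosome 7 (12999114 to 13031035), was at 115.6 TPM in replicate 1 and 120.9 TPM in replicate 2, a mean of 118 ± 3.74, above 95.8% of protein-coding genes. Its DNA-binding partner Zfp57, on chromosome 17 (37001163 to 37010635), was at 7.05 and 8.30 TPM, a mean of 7.67 ± 0.884. In TPM, Trim28 exceeded Zfp57 16.4-fold and 14.6-fold, and in counts per kilobase of the longest complete coding transcript 9.60-fold on average. Zfp57 ranked 82nd of 394 protein-coding genes named Zfp with a number, of which 75.1% were detected, with a median of 2.69 TPM.

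In descending TPM the order was Trim28, Uhrf1, Dnmt1, Dnmt3a, Tet3, Zfp57, Dnmt3b, Tet2, Tet1 and Dnmt3l. Neighbours whose values overlapped between libraries were Zfp57 with Dnmt3b, which changed places in replicate 2, and Tet2 with Tet1. Per kilobase of the longest complete coding transcript, Tet2 and Tet1 did not overlap. The place of Trim28 rested on a short transcript. Per length of the longest complete coding transcript, Uhrf1 stood at 83.4 ± 10.0 CPM per kb, Trim28 at 45.5 ± 1.85 and Dnmt1 at 35.0 ± 2.66. In the TPM of complete coding transcripts alone, Trim28 (37.1) stood below Uhrf1 (94.5) and Dnmt1 (41.7), and Dnmt3b (7.02) above Zfp57 (5.85). Dnmt3a (15.5), Tet3 (7.69) and Tet1 (1.20) kept their places there at levels more than 1.5 times lower than in the TPM of all transcripts.

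The transcript tables divide each gene among its annotated transcripts, and that division is an estimate where transcripts share sequence. Trim28-203, a retained-intron transcript of 565 nt, took 53.2% and 51.7% of the gene's TPM in replicates 1 and 2. It shares 486 nt with the coding transcript Trim28-201, of 3245 nt, and has 79 nt of its own. Trim28-201 took 30.5% and 32.3% of TPM, but 73.6% and 74.8% of the gene's estimated reads. In reads, then, the coding form led, and in TPM the short fragment led.

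Dnmt1 came mostly from its main start. Dnmt1-201 took 70.0% and 74.1% of TPM. Dnmt1-202, which starts 6909 nt further upstream with a first exon of 156 nt of its own, took 27.7% and 23.5%, on 1955 and 1444 reads with posterior SDs of 168 and 155 reads. The order of both starts was the same in the libraries. An upstream first exon of Dnmt1 is known from oocytes, and the cells that gave the reads of Dnmt1-202 were not tested. Dnmt1-202 and Dnmt1-201 share 5092 nt, so the division rests on a small part of their length.

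For Dnmt3a, transcripts that began in the region of the long form start took 49.1% and 53.6% of TPM and those from the internal start 38.5% and 33.6%. In reads the shares were 62.3% and 65.9% for the region of the long form start, and 36.1% and 31.7% for the internal start. That region also holds retained introns and incomplete transcripts. Its only complete coding transcript with reads, Dnmt3a-201, took 53.6% and 58.9% of reads. In TPM it took 23.4% and 29.1%, less than the internal start. The internal start lies 84714 nt downstream and gives the shorter protein known as the embryonic form. The largest transcripts were Dnmt3a-201 (26.3% ± 4.02 of TPM), from the long form start, and Dnmt3a-203 (22.7% ± 2.21), from the internal one. Dnmt3a-205 (13.3% ± 5.68) also began at the internal start. The retained intron Dnmt3a-202 (14.0% ± 1.37) and the incomplete Dnmt3a-206 (10.6% ± 0.815) began in the region of the long form start.

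By the same kind of estimate Uhrf1 was divided between both starts. Transcripts of the CpG-rich downstream start took 56.4% and 51.1% of TPM, and those of the upstream start 41.0% and 45.8%. Uhrf1-204 led with 54.6% and 49.8%, followed by Uhrf1-203 (23.2% ± 1.24) and Uhrf1-201 (20.2% ± 2.16). Replicate 1 had the larger estimated share from the downstream start. Uhrf1-203 and Uhrf1-201 share 3321 and 3345 nt with Uhrf1-204, so the division rests on a small part of their length. In replicates 1 and 2 the posterior SDs were 304 and 295 reads for Uhrf1-203, on 2477 and 2195. For Uhrf1-201 they were 341 and 312 reads, on 2128 and 2034.

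Dnmt3b was led by the form without the exons shown above. Dnmt3b-206 took 53.9% of TPM in replicate 1 and 69.7% in replicate 2, and Dnmt3b-201 took 30.4% and 15.9%. Transcripts with both exon 22 and exon 23 took 42.1% and 22.2% of TPM, on 342 and 240 estimated reads. Transcripts with neither took 55.3% and 69.7%, on 416 and 697 reads. Proteins without these exons lack part of the catalytic domain and are known as catalytically inactive forms. The posterior SD of Dnmt3b-206 was 87.5 reads on 405 in replicate 1 and 52.4 on 697 in replicate 2, so the division was less certain than the gene's total. By posterior mean TPM Dnmt3b-206 still led, with a mean share of 45.5%. Dnmt3b-209, which took 11.7% and 6.31%, was the other transcript above 10% in either library.

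The Tet genes differed in how many transcripts the annotation used for counting gave them. Tet2 had 1 transcript there, Tet2-201, so its share of all reads was fixed by the annotation. The bounds of Tet2 given above, from GENCODE M21, reach beyond this transcript. Tet3-202, the longest coding transcript, took 40.1% and 41.0% of the gene's TPM and 77.9% and 77.3% of its reads. The fragment Tet3-204, of 469 nt, took 26.9% and 27.3% of TPM but 1.79% and 1.76% of reads, and the noncoding Tet3-201 took 23.2% and 18.9% of TPM. Tet3-203, which begins at another start, took 9.71% and 12.8%. Tet1-206 led with 25.2% and 37.3% of TPM and 60.5% and 88.1% of reads. Tet1-201 took 12.6% of TPM in replicate 1 and 0 in replicate 2, with a posterior SD of 73.3 reads on 155 in replicate 1. The fragments Tet1-205 (27.5% ± 4.82), Tet1-202 (19.4% ± 6.51) and Tet1-203 (12.9% ± 7.20) took much of the TPM of Tet1 and few of its reads.

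Zfp57 was spread over several starts with the same coding length. Zfp57-212 took 33.5% and 42.8% of TPM, Zfp57-211 took 21.3% and 14.5%, and Zfp57-201 took 18.6% and 11.3%. The retained intron Zfp57-210 took 16.0% and 20.8% of TPM on 18.1 and 26.2 reads. Dnmt3l-203 held all 13 reads of Dnmt3l in replicate 2 and 6 of 9 in replicate 1. On the mean of the libraries, in each gene but Trim28 the transcript that led in TPM also led in reads.

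**Figure D2:**
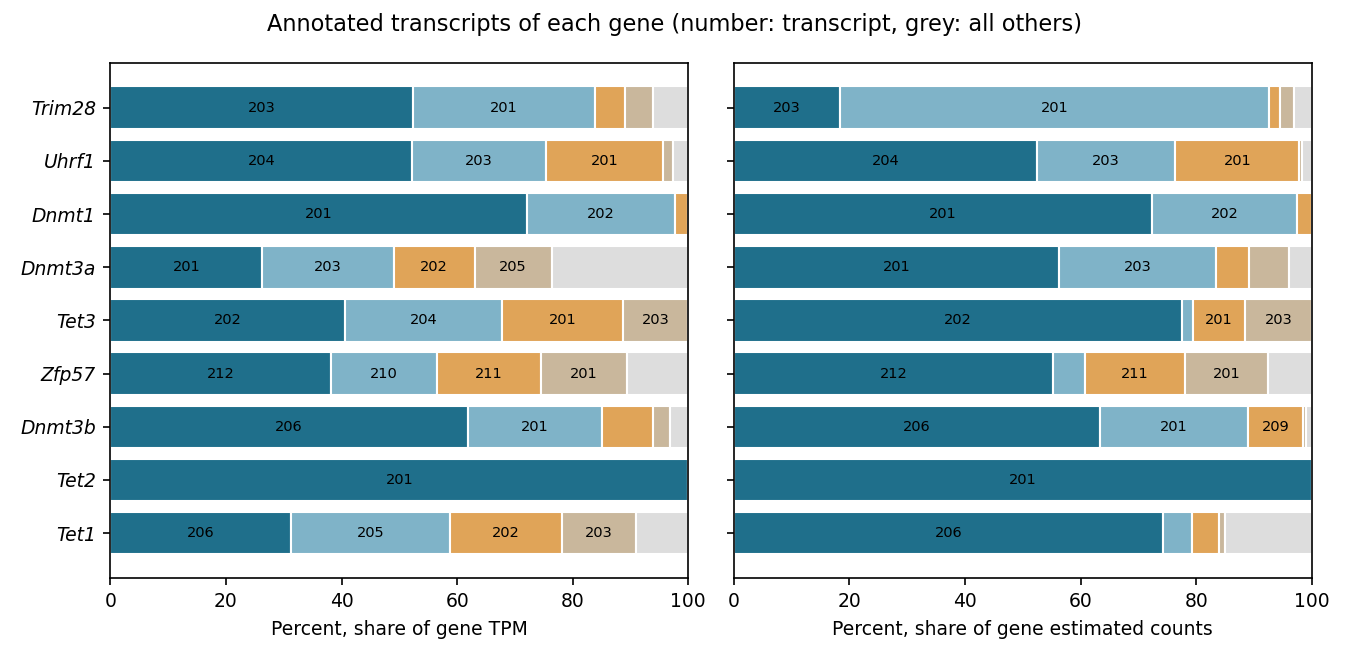
Share of each gene held by its annotated transcripts, in percent of TPM on the left and percent of estimated counts on the right, as means of 2 libraries. The 4 transcripts with the highest TPM are coloured and numbered where wide enough, the rest is grey, and Dnmt3l is left out for its few counts. Trim28 is led by transcript 203 on the left and by transcript 201 on the right.

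Promoter windows from RefSeq, from 250 nt before to 50 nt after a start, were available for all 10 genes, 19 windows in all. A window was called CpG-rich at a GC content of at least 50% and an observed over expected CpG ratio of at least 0.6. By this rule 8 of the 19 windows were CpG-rich, against 33.5% of 32851 windows of all genes. The 8 lay in 7 of the 10 genes, and the share of all genes with such a window was not computed. Dnmt1 counted only through the window of Dnmt1-203, and no quantified transcript started near the Tet1 window. Tet2 had the most CpG, 57, and the median of all windows was 7. No window of Dnmt3l, Zfp57 or Tet3 was CpG-rich, and the Tet3 window fell just short with a ratio of 0.576. E2F factors switch on genes of DNA replication, and 3 forms of their motif were searched on both strands, TTTCCCGC, TTTGGCGC and TTTCGCGC, which can overlap. At least 1 was in 1.84% of all windows and in 2 of the 19, the downstream Uhrf1 window and that of the minor transcript Dnmt1-203. A match is a description of the letters in the window.

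The replicates were compared by the ratio of their estimated counts after scaling by TMM (trimmed mean of M values), as log2 of replicate 1 over replicate 2. Beside each ratio stands its exact 95% Clopper-Pearson interval, for counting error only. No gene of the 9 with a mean count of at least 20 was 1.5-fold apart. Among all 15506 such genes, 2.54% were 1.5-fold higher in replicate 1 and 4.57% in replicate 2. In 6 of the 9 the value was higher in replicate 2, against 51.1% of all genes. Of the 9 intervals 7 left out a ratio of 1, against 48.8%. These shares are not at like depth, since intervals narrow with reads. The 9 genes had at least 372 reads in each library, while all genes reached down to a mean of 20. The median over the 9 genes was -0.22, and -0.01 over all genes.

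Uhrf1 was 1.27-fold higher in replicate 1 (10752 against 8807 reads, log2 0.34, interval 1.23 to 1.31). Dnmt1 was 1.19-fold higher in replicate 1 (7180 against 6261 reads, log2 0.25, interval 1.15 to 1.23). The other ratios of this size ran the opposite way. Dnmt3a was 1.34-fold higher in replicate 2 (2833 against 3957 reads, log2 -0.42, interval 1.28 to 1.41), the largest difference of the 9 genes. Tet2 was 1.24-fold higher there (964 against 1244 reads, log2 -0.31), Dnmt3b 1.20-fold (761 against 950, log2 -0.26), Tet1 1.19-fold (522 against 645, log2 -0.25) and Tet3 1.16-fold (2313 against 2796, log2 -0.22). For Zfp57 (372 against 435 reads, log2 -0.17) and Trim28 (4746 against 4881, log2 0.02) the interval included a ratio of 1. Under scaling by library size alone or by deposited TPM the ratio of Trim28 was below 0 on the log2 scale (-0.08 and -0.06), and the median of all genes lay at -0.11 and -0.14.

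Markers of the cell types of the spleen also differed between the pups. All 12 S phase genes, which are transcribed while DNA is copied, were higher in replicate 1 (median log2 0.34, summed level 2241 against 1839 TPM). Rrm2, a subunit of the enzyme that makes deoxynucleotides, was 1.52-fold higher, and the highest others were Slbp (343 ± 51.6 TPM) and Tyms (192 ± 19.8). All 8 erythroid genes were higher in replicate 1 (median log2 0.34, 2871 against 2560 TPM), led in level by Alas2 (713 ± 4.48 TPM) and Slc4a1 (475 ± 45.5). All 8 neutrophil genes were higher in replicate 2 (median log2 -0.36, 14285 against 20278 TPM), among them S100a8, S100a9 and Retnlg.

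Lymphoid genes were higher in replicate 2 in 6 of 7 (median log2 -0.39, 108 against 152 TPM). Cd3g of T cells was 1.62-fold and the recombinase gene Rag1 1.54-fold higher there, and the highest in level were the B cell genes Cd79b, Cd79a and Vpreb1. All 8 genes of stroma and endothelium, led by Col3a1, Col1a1 and the spleen stroma factor Tcf21, were higher in replicate 2 (median log2 -0.28, 699 against 945 TPM) and all were detected. Uhrf1 and Dnmt1 had the sign of the S phase and erythroid lists, and of the pancreas and liver lists described next. Dnmt3a, Dnmt3b and the Tet genes had that of the neutrophil, lymphoid and stroma lists. In whole tissue, fewer cells of a type and less RNA per cell cannot be told apart, and the part of these cell types in the ratios was not tested.

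Genes of neighbouring organs stood out in replicate 1. The 6 tested pancreas genes were all past 1.5-fold higher in it (median log2 1.77), from 2.11-fold for Ins2, the insulin gene, to 4.67-fold for Cpa1, a digestive enzyme (list sum 845 against 302 TPM). Between these lay Ctrb1 (2.78-fold), Clps (3.36-fold) and Cela2a (3.47-fold), while Pnlip and Ptf1a had 5 and 7 reads in replicate 1 and 0 in replicate 2. Of 8 liver genes 3 were detected, and Afp, Alb, Apoa1, Fgb and Ttr were 1.54-fold to 2.50-fold higher in replicate 1 (list sum 26.0 against 13.7 TPM; median log2 1.09 over the 6 tested, all higher in replicate 1). For Hnf4a, the other liver gene tested, the interval was 0.755 to 1.78. Whether tissue of these organs was in the samples was not tested, nor was any part of it in the levels of the methylation genes. Of 8 germ cell genes none was detected, their sum was 1.13 and 1.34 TPM, the highest were Gdf9, Ddx4 and Nanog, and Zp3 was at 0 reads in both.

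**Figure D3:**
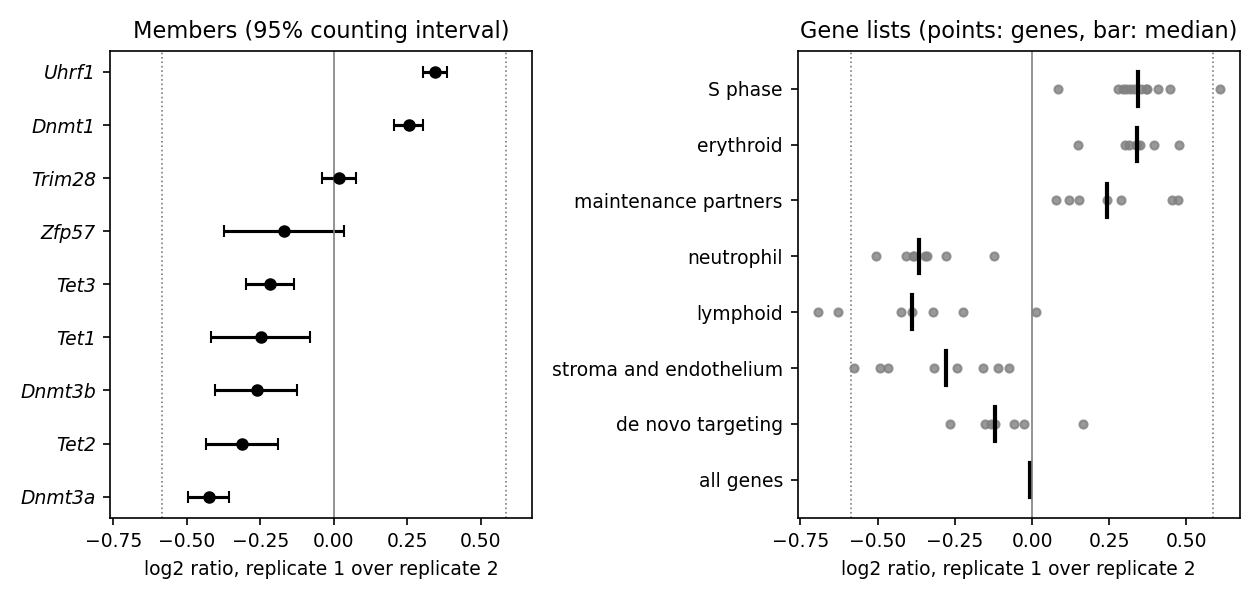
Log2 ratio of replicate 1 over replicate 2, on the left for the 9 tested genes with 95% counting intervals and on the right for gene lists, with a point per gene and a bar at the median; for all genes only the median is drawn. Dotted lines mark 1.5-fold. Uhrf1 and Dnmt1 lie to the right of 0 with the S phase and erythroid lists, and Dnmt3a, Dnmt3b and the Tet genes lie to the left.

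The other genes of the pathway were read from lists by role. Of 8 genes listed with maintenance, which include a tRNA methyltransferase, 7 were detected. All 7 were higher in replicate 1 (median log2 0.24), none past 1.5-fold. They were led by Pcna (367 ± 58.3 TPM), the clamp that holds Dnmt1 at the replication fork, Lig1 (137 ± 20.8), the ligase of the lagging strand, and Cdca7 (72.8 ± 3.71), which recruits the remodeller Hells. Several of these are S phase genes themselves. Dppa3, which blocks Uhrf1 in oocytes, had 0 and 1 read.

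All 7 genes listed with de novo methylation were detected, and 6 were higher in replicate 2 (median log2 -0.12), none past 1.5-fold. Most guide the enzymes, but the list also holds the methyltransferase Dnmt3c. Dnmt3c was among the 6, and its log2 of -0.12 was the median. The histone H3 lysine 9 methyltransferases Ehmt2 (26.2 ± 3.80 TPM) and Ehmt1 (22.0 ± 1.63) led. Nsd2 (19.1 ± 0.247), a histone H3 lysine 36 methyltransferase, was the gene that was higher in replicate 1. Levels in this list were lower than in the maintenance list, with a median of 8.68 against 35.4 TPM.

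Of 9 genes listed as readers of methylated CpG or as relatives of such readers, 8 were detected. Not every protein of this list need bind methylated CpG. Mbd3 (54.8 ± 6.22 TPM), a subunit of the NuRD complex, led ahead of Mbd2 (27.7 ± 4.09) and Mbd1 (16.6 ± 0.997). Values were higher in replicate 1 for 5 and in replicate 2 for 4 (median log2 0.00). Of 10 genes that remove oxidised cytosine by base excision repair 9 were detected, led by the abasic site nuclease Apex1 (84.5 ± 1.30 TPM), the poly(ADP-ribose) polymerase Parp1 (47.5 ± 1.92) and Tdg (38.8 ± 0.297), the glycosylase that cuts out the oxidised base. Among the 9 tested, 6 were higher in replicate 1 and 3 in replicate 2 (median log2 0.11), and none was past 1.5-fold.

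Of 8 cofactors and regulators of the Tet enzymes 7 were detected. Idh2 (112 ± 15.5 TPM) and Glud1 (31.3 ± 4.71), which make their cosubstrate 2-oxoglutarate, and Ogt (61.6 ± 4.67), which binds them, were highest. In this list 2 genes were past 1.5-fold, both higher in replicate 2. Cxxc4, whose protein binds unmethylated CpG and Tet2, was at 0.92 TPM in replicate 1 and 1.48 TPM in replicate 2, with 80 and 161 reads, 1.91-fold apart (interval 1.47 to 2.56). Cxxc5, its close relative, was at 6.60 and 12.6 TPM, 1.72-fold apart (interval 1.54 to 1.94). Of the 8, 5 were higher in replicate 2 and 3 in replicate 1 (median log2 -0.15).

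All 12 genes listed with the Trim28 complex were detected, 6 higher in each replicate (median log2 0.02), none past 1.5-fold. Not every protein of this list need be a subunit of that complex. Cbx3 (367 ± 20.9 TPM) and Cbx1 (43.3 ± 1.10), which encode heterochromatin protein 1, and the remodeller Atrx (76.2 ± 10.6) led. All 7 genes of methyl donor supply were detected, led by the S-adenosylmethionine synthesis genes Mat2a (162 ± 3.63 TPM) and Mat2b (87.1 ± 1.12) and by Ahcy (41.2 ± 2.08), which clears the product of methyl transfer. Of these 6 were higher in replicate 1 (median log2 0.12).

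None of 10 germline genes known to be silenced by promoter methylation in somatic cells was detected. Ddx4, an RNA helicase of germ cells, was highest with 0.37 and 0.45 TPM on 32 and 37 reads, followed by Slc25a31 (0.1 and 0.11 TPM) and Dazl (0.04 and 0.09). Mael, Asz1 and Tex101 had 0 reads in both libraries, which allows up to 0.0906 CPM in replicate 1 and 0.0933 in replicate 2 (3 reads of the total). The list summed to 0.55 and 0.83 TPM. It shares genes with the germ cell list above, among them Ddx4 and Dazl, so the 2 results are not separate.

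**Figure D4:**
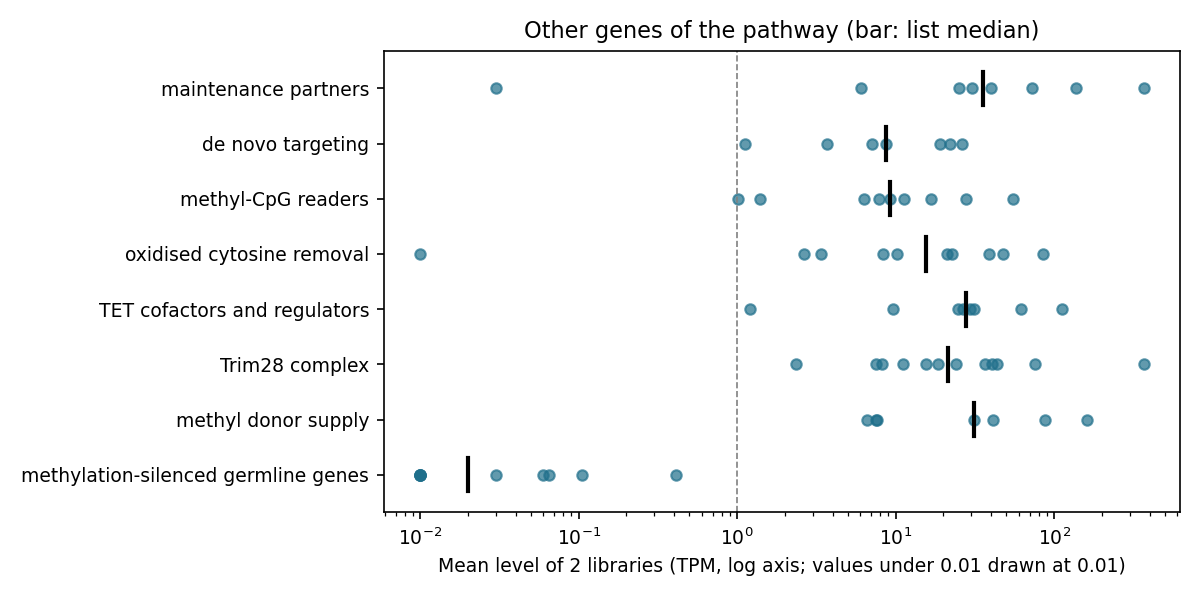
Mean TPM of 2 libraries for the genes of 8 lists by role, on a log axis, with a point per gene, a bar at the list's median and a dashed line at 1 TPM. The germline genes lie to the left of the line, and of the other lists only Dppa3 and Neil2 do so.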

How the data were processed

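For each library the files by the authors cover genes and transcripts, with mm10 as the build in the labels and GENCODE M4 as the annotation in the deposited listing. The labels and headers name no aligner. In the expected counts that the authors made, called reads in the text, reads that fit several features are split among them. The TPM values of the authors are scaled by length and over all features, spike-ins included. Posterior mean TPM, posterior SDs and isoform percent were deposited by the authors as well. The libraries held 33122187 and 32162543 estimated counts. Use of strand in counting was not stated in the labels or headers.

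The genes and lists were chosen with earlier results of these data known. Symbols, coordinates and classes came from GENCODE M21, also on mm10, by Ensembl identifier (42462 of 43346 matched); 1 list symbol was matched by an older name (Whsc1, now Nsd2). Of each list the text names the 3 genes with the highest mean TPM, those past 1.5-fold and those at 0 in both libraries, and for transcripts those with at least 10% of their gene's TPM; other low genes, Dnmt3c, Dppa3, Dnmt1-203, Pnlip and Ptf1a were named after their values were seen. The values of 2 genes that this rule takes are not reported here. TMM scaling of the rounded counts used edgeR 4.0.16 under R 4.3.3, with a prior count of 2 and a minimum mean count of 20; spike-ins were left out. The step was tested on simulated data. The replicates differed beyond counting noise (chi-square per degree of freedom 23.6). Both pups carry 1 donor identifier in the labels and are treated as 2 animals. Alternatives were DESeq2 1.42.0 size factors, other scalings, filters, prior counts, thresholds and units, and each library alone. The other steps ran in Python 3.11.15 (pandas 2.3.3, numpy 2.4.6, scipy 1.17.1, matplotlib 3.10.9).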

Additional observations from a re-analysis of the deposited data

How the results depend on the processing

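The count of genes detected (9) was 9 under thresholds of 0.5 and 2 TPM, at least 10 reads, posterior mean TPM, TPM without adult globin genes and each library alone, and 7 at 5 TPM. None of the 9 tested genes was 1.5-fold apart under any scaling, filter or prior count tried; at the lower fold tried 2 were called, Uhrf1 and Dnmt3a. The order of the 10 levels kept all 10 places under the rescaled TPM and posterior means, and 8 to 10 with 1 library left out. It kept 4 places in CPM, which are not per length. In alternatives chosen after seeing the data it kept 5 places in the TPM of complete coding transcripts and 6 in counts per kilobase. The 7 ratios between relatives stayed on the same side of 1 under posterior means, counts and each library alone, and so did the 6 computed in counts per kilobase. Their sizes moved there: Dnmt3a over Dnmt3b from 3.34 to 1.76, Tet2 over Tet1 from 1.24 to 2.96, Tet2 over Tet3 from 0.269 to 0.512 and Trim28 over Zfp57 from 15.5 to 9.60. The leading transcript was the same in 9 of 10 genes by estimated counts, where Trim28 differed, and by posterior mean TPM or without replicate 2, where Dnmt3l differed. No paired analysis was possible because there is 1 group. The 2 libraries of 1 litter limit the spread to that between these pups, and shares of transcripts rest on short sequence of their own.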
